A study of Mus musculus with 6 samples.

Results

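The red cell and haem synthesis genes described here are the α-globin genes Hba-a1 and Hba-a2, the β-globin genes Hbb-bs and Hbb-bt, Alas2 and Slc4a1, which were taken by symbol and make 6 of the 40842 named genes in the tables. RNA of whole lung was sequenced from wild-type female C57BL/6N mice, with polyA libraries. The irradiated group has 3 libraries from mice given a single dose of 20 Gy as 9 MeV electrons, and the control group has 3 libraries from mice that had no treatment. Both groups carry the label of 100 days. The labels give neither the age of the mice nor the exposed part of the body, and do not say that each library is a separate mouse, so the p-values cover differences among these libraries, and those may be technical. The question put to these 6 genes is how much red cell RNA each lung held, with S100a8, a transcript of blood neutrophils, beside them.

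Haemoglobin is built from α and β chains, each holding a haem group that binds oxygen. A mature red cell has no nucleus, but young red cells (reticulocytes) still carry globin RNA, so globin transcripts in a solid organ usually mark the blood it contains. Alas2 encodes the erythroid form of the first enzyme of haem synthesis, and Slc4a1 encodes band 3, the anion exchanger of the red cell membrane. Lung epithelium and endothelium are also known to make some globin. In bulk tissue, fewer cells of a type and less RNA per cell cannot be told apart.

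The 6 genes lie on 3 chromosomes, in GRCm39 coordinates of the files. Hba-a1 is at chromosome 11, 32233672 to 32234486, and Hba-a2 at chromosome 11, 32246492 to 32247310, both on the plus strand. Hbb-bs is at chromosome 7, 103475730 to 103477135, and Hbb-bt at chromosome 7, 103461731 to 103463130, both on the minus strand. Alas2 is at chromosome X, 149330413 to 149353618, on the plus strand, and Slc4a1 at chromosome 11, 102239646 to 102256107, on the minus strand. Each value is for the whole gene. Alas2 lies within the span of Apex2, a DNA repair gene on the opposite strand that was at 1.55 to 2.63 FPKM (fragments scaled to transcript length and library size, the level the authors deposited). The strand setting is not given in the sources used here, so how any reads that fall in exons of both genes were assigned is not known. In irradiated 2, Apex2 was at 2.18 FPKM and Alas2 at 116 FPKM.

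The copies within each globin pair are almost the same sequence. In GENCODE M21 transcripts the longest open reading frames of Hba-a1 and Hba-a2 are both 429 bases long and differ at 1 base, and those of Hbb-bs and Hbb-bt are both 444 bases long and also differ at 1 base. The longest run shared without a mismatch is 415 bases in the α pair and 430 bases in the β pair. The split of reads within a pair is therefore uncertain, and how reads that match both copies were counted is not given in the sources used here.

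The sequences before the start sites of 4 members are shown as a description of these genes. Whether they bear on the levels in any library was not tested. They are the 250 bases upstream of the start in RefSeq (GRCm38.p6), at chr11:32283422-32283671 on the plus strand for Hba-a1, chr7:103827929-103828178 on the minus strand for Hbb-bs, chr7:103813924-103814173 on the minus strand for Hbb-bt and chrX:150547167-150547416 on the plus strand for Alas2. Each is written 5′ to 3′ along its gene. Capitals mark the letters GATAA (the core read by GATA factors), CACCC (read by erythroid Krüppel-like factor and its relatives), CCAAT and TATAA, each searched on both strands.
Hba-a1: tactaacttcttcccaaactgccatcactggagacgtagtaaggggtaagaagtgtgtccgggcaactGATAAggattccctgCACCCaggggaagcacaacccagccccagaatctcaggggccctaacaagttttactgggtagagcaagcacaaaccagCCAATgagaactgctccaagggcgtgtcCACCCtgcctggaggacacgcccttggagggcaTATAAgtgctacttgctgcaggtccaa
Hbb-bs: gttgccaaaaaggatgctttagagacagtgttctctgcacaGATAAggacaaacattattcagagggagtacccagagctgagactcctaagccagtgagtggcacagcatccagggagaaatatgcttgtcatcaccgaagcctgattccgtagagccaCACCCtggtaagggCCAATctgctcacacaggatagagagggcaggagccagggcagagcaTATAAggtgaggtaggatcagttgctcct
Hbb-bt: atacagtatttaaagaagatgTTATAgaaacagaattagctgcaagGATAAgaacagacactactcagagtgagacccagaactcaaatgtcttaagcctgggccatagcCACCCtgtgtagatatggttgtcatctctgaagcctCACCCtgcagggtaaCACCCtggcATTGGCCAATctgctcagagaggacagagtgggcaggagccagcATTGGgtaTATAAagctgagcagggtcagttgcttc
Alas2: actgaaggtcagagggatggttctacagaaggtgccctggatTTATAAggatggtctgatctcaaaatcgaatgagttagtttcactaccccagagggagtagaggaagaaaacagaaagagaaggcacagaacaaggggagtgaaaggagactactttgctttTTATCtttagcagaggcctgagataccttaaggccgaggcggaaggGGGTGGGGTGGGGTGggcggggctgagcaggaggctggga
The Hba-a2 window, at chr11:32296242-32296491, aligns to that of Hba-a1 over 247 bases with 0 mismatches, whereas the Hbb-bs and Hbb-bt windows differ at 65 of 243 aligned bases. GATAA occurs once in each of the 5 windows, on the plus strand in the globin genes and on the minus strand in Alas2, and 22.6% of 32851 promoter windows of the same length hold it. CACCC occurs 2 times in Hba-a1, once in Hbb-bs and 3 times in Hbb-bt and Alas2, against 52.0% of windows with at least 1. CCAAT is present in the globin windows and these letters are not in the Alas2 window (33.8% of windows hold them). TATAA lies 27 to 23 bases before the start in Hba-a1, 29 to 25 in Hbb-bs and 28 to 24 in Hbb-bt, and 22.8% of windows hold it. The TATAA letters of Alas2 lie 208 to 203 bases before the start, where matches on both strands overlap. These are matches of letters only.

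The libraries were close to each other in depth except irradiated 2, the deepest. The ratio of deposited coverage to FPKM implied 5.11 to 10.4 Gb of aligned sequence per library. Lung identity genes were high in all 6 libraries. Sftpc, surfactant protein C, was at 8741 to 9588 FPKM in irradiated and 14677 to 16828 FPKM in control lungs. Scgb1a1, the secretory airway protein, was at 16267 to 26655 FPKM in irradiated and 30981 to 44203 FPKM in control lungs. Of the 10 listed, 9 had negative log2 changes. In 3 every irradiated library was below every control library, as for 14.6% of tested genes, and 0 passed limma. Irradiated 2 stood apart in having the lowest cardiac muscle transcripts (a sum of 20.3 FPKM over 7 genes, against 74.2 to 529 FPKM in the other 5 libraries) and the lowest adipose transcripts (5.67 FPKM over 7 genes, against 18.9 to 456 FPKM). With limma on log2(FPKM + 1), 25 of 13908 tested genes (0.180%) passed an adjusted p of 0.05 (Benjamini-Hochberg), 9 higher and 16 lower in irradiated lung, and none of them is a member.

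Globin RNA was at about the same level in 5 of the 6 lungs and several times higher in irradiated 2. Summed over the 4 globin genes it was 1415, 6135 and 1585 FPKM in irradiated 1 to 3, against 1372, 1333 and 1684 FPKM in control 1 to 3. Irradiated 2 was 4.19 times the control mean, while irradiated 1 (0.967 times) and irradiated 3 (1.08 times) lay within the control range. The globin genes took 2.06% of all named FPKM in irradiated 2, against 0.380% to 0.525% in the other 5 libraries. By group the sum was 3045 ± 2677 FPKM in irradiated and 1463 ± 192 FPKM in control libraries (SD, n = 3 each). The log2 difference of 0.72 had p = 0.50 (two-sided exact permutation test over 20 regroupings, smallest possible p 0.10). Without irradiated 2 the difference was 0.04.

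**Figure D1:**
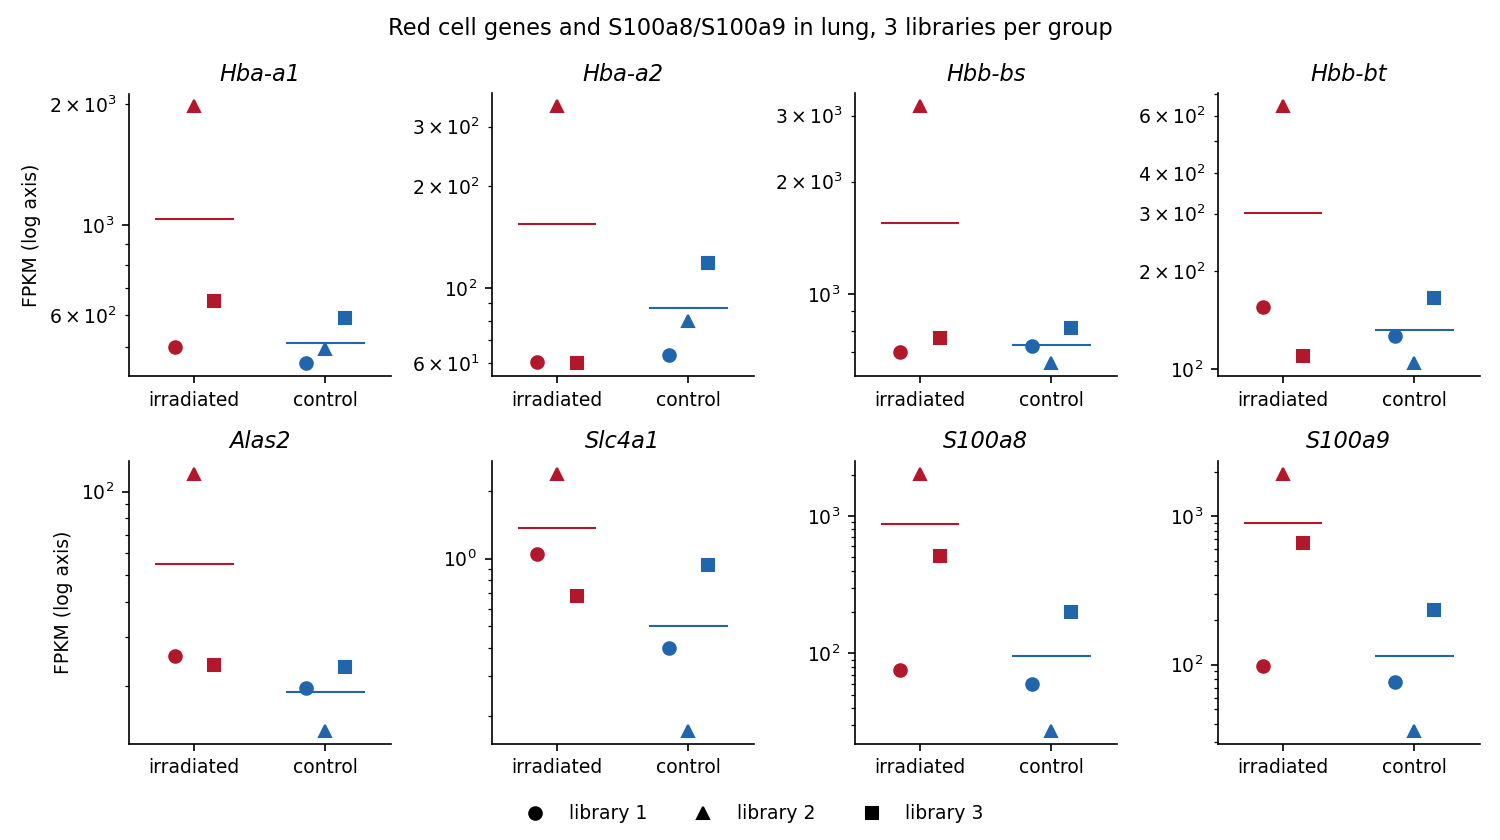
FPKM (log axis) of the 6 red cell genes and of S100a8 and S100a9 in each library, irradiated left and control right; symbols give the library number and lines the group means. Irradiated 2 is the highest of 6 libraries in all 8 panels, and irradiated 3 is more than 2 times every control library for S100a8 and S100a9 alone.

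Of the α-globin genes, Hba-a1 was at 499, 1972 and 648 FPKM in irradiated 1 to 3, against 456, 494 and 589 FPKM in control 1 to 3. The groups overlap through irradiated 1. Hba-a2 was at 60.3, 345 and 59.9 FPKM in irradiated lungs, against 63.4, 79.9 and 119 FPKM in control lungs. Irradiated 1 and 3 were below every control library and irradiated 2 above every one, so Hba-a2 had no common direction within the irradiated group. The limma log2 change was 0.76 ± 0.49 (SE) for Hba-a1 (adjusted p = 0.466) and 0.35 ± 0.72 for Hba-a2 (adjusted p = 0.843). Without irradiated 2 it was 0.16 ± 0.18 for Hba-a1 and −0.48 ± 0.26 for Hba-a2 (limma adjusted p = 0.716 and 0.447).

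Of the β-globin genes, Hbb-bs had the highest level of the members in every library. It was at 700.04, 3178 and 767 FPKM in irradiated 1 to 3, against 727, 654 and 811 FPKM in control 1 to 3. It ranked number 3 among all named genes in irradiated 2, and between 18 and 30 in the other libraries. Hbb-bt was at 155, 641 and 110 FPKM in irradiated lungs, against 126, 104 and 166 FPKM in control lungs. For both genes irradiated 1 and 3 lay inside the control range. The limma log2 change was 0.71 ± 0.57 for Hbb-bs (adjusted p = 0.558) and 0.77 ± 0.65 for Hbb-bt (adjusted p = 0.584), and without irradiated 2 both were 0.01 (SE 0.15 and 0.24).

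Alas2 was the member with the largest ratio to the controls. It was at 25.5, 116 and 23.7 FPKM in irradiated 1 to 3, against 19.7, 13.8 and 23.3 FPKM in control 1 to 3. The groups did not overlap, by the narrow gap between irradiated 3 and control 3, and 9.91% of the 13908 genes had every irradiated library above every control library. The mean was 55.0 ± 52.6 FPKM in irradiated and 18.9 ± 4.80 FPKM in control libraries (SD, n = 3 each). The limma log2 change of 1.12 ± 0.63 did not pass (adjusted p = 0.408). Without irradiated 2 it was 0.39 ± 0.21 (adjusted p = 0.453).

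Slc4a1 was the lowest member and was not tested, because its mean of 0.937 FPKM lay under the minimum of 1 FPKM. It was at 1.05, 2.38 and 0.685 FPKM in irradiated 1 to 3, against 0.400, 0.172 and 0.936 FPKM in control 1 to 3. Irradiated 3 lay below control 3, so the groups overlap. The deposited coverage of Slc4a1 was 1.17 to 24.6 per base over the libraries, against 3914 to 32920 per base for Hbb-bs, and counting error is correspondingly larger. Without the minimum its log2 change was 0.63 ± 0.32 (limma adjusted p = 0.531 over 31967 genes).

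In all, 5 of the 6 members were tested and 0 passed an adjusted p of 0.05 with limma, or an unadjusted p of 0.05. Over all 6 the median log2 change was 0.73, against −0.03 over all genes tested, and it was 0.08 without irradiated 2. All 6 were highest in irradiated 2, where 10.4% of tested genes had their highest value. By a rule chosen after the values were seen, all 6 were also at least 2-fold above the next highest library in irradiated 2 (2.26-fold for Slc4a1 to 4.54-fold for Alas2), as were 0.518% of tested genes.

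**Figure D2:**
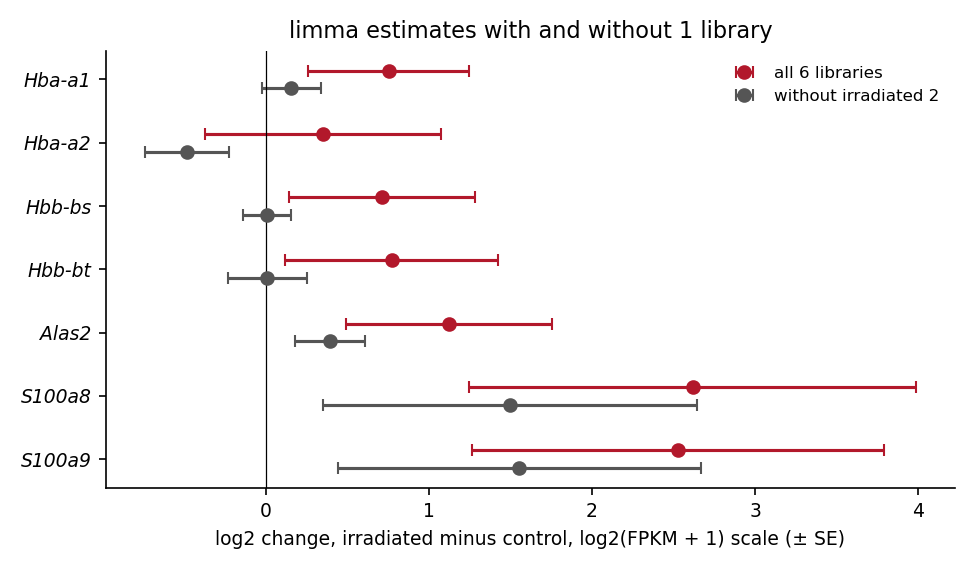
Limma log2 change ± SE, on the log2(FPKM + 1) scale and as irradiated minus control, for the 5 tested members and S100a8 and S100a9, with all 6 libraries and without irradiated 2. Leaving out irradiated 2 brings Hbb-bs and Hbb-bt to 0.01 and turns Hba-a2 to −0.48.

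Over all 6 libraries, ratios between globin genes varied less than globin itself, a contrast that rests on irradiated 2. The ratio of α to β globin was 0.654, 0.607 and 0.808 in irradiated 1 to 3, against 0.608, 0.757 and 0.724 in control 1 to 3. It spread 1.33-fold where summed globin spread 4.60-fold. Without irradiated 2, summed globin ran from 1333 to 1684 FPKM and α over β globin from 0.608 to 0.808. The ratios then did not vary less than globin. Hbb-bt over Hbb-bs was 0.222, 0.202 and 0.143 in irradiated lungs, against 0.174, 0.159 and 0.204 in control lungs. Hba-a2 over Hba-a1 varied more, at 0.121, 0.175 and 0.0924 in irradiated lungs, against 0.139, 0.162 and 0.202 in control lungs. None of the 3 ratios separated the groups (two-sided exact permutation p = 0.90, 0.90 and 0.30).

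The ratio of Alas2 to globin did not overlap between the groups. Per 100 FPKM of globin there were 1.80, 1.89 and 1.50 FPKM of Alas2 in irradiated 1 to 3, against 1.43, 1.03 and 1.38 FPKM in control 1 to 3. All 3 irradiated values lay above all 3 control values, which gives p = 0.10, the smallest a two-sided exact permutation test can reach here, and an adjusted p of 0.525 over the 7 sums and ratios tested. The log2 difference was 0.44, and between 0.29 and 0.54 when any 1 library was left out. Slc4a1 per 1000 FPKM of globin was 0.743, 0.387 and 0.432 FPKM in irradiated lungs, against 0.292, 0.129 and 0.556 FPKM in control lungs, where the groups overlap (exact permutation p = 0.30).

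**Figure D3:**
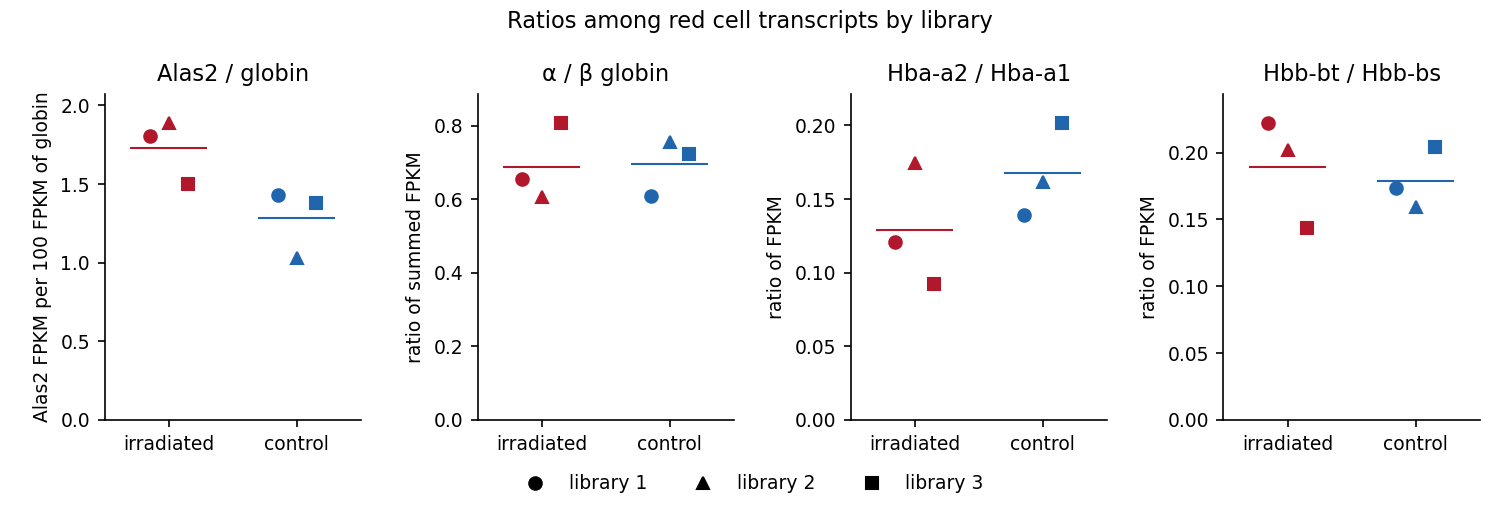
Ratios among red cell transcripts in each library, irradiated left and control right; symbols give the library number and lines the group means. Alas2 per 100 FPKM of globin is 1.50 to 1.89 in the irradiated libraries and 1.03 to 1.43 in the controls, while the other 3 ratios overlap.

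S100a8 forms calprotectin with S100a9 and is one of the most abundant transcripts of blood neutrophils. It was at 75.0, 2029 and 510 FPKM in irradiated 1 to 3, against 59.3, 27.2 and 199 FPKM in control 1 to 3. S100a9 had a like order of libraries, at 97.9, 1935 and 665 FPKM in irradiated lungs, against 76.5, 35.8 and 232 FPKM in control lungs. Both genes were high in irradiated 2 and 3, and irradiated 1 lay within the control range. The limma log2 change was 2.62 ± 1.37 for S100a8 (adjusted p = 0.385) and 2.53 ± 1.26 for S100a9 (adjusted p = 0.365). Without irradiated 2 it was 1.50 ± 1.15 and 1.56 ± 1.11.

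S100a8 and globin did not keep a fixed proportion. The ratio of S100a8 to summed globin was 0.0530, 0.331 and 0.322 in irradiated 1 to 3, against 0.0432, 0.0204 and 0.118 in control 1 to 3, a 16.2-fold spread. It was as high in irradiated 3, with globin at the control level, as in irradiated 2, with globin at 4.19 times the control mean. The groups overlap through irradiated 1 (two-sided exact permutation p = 0.20, adjusted p = 0.525 over the 7 sums and ratios).

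**Figure D4:**
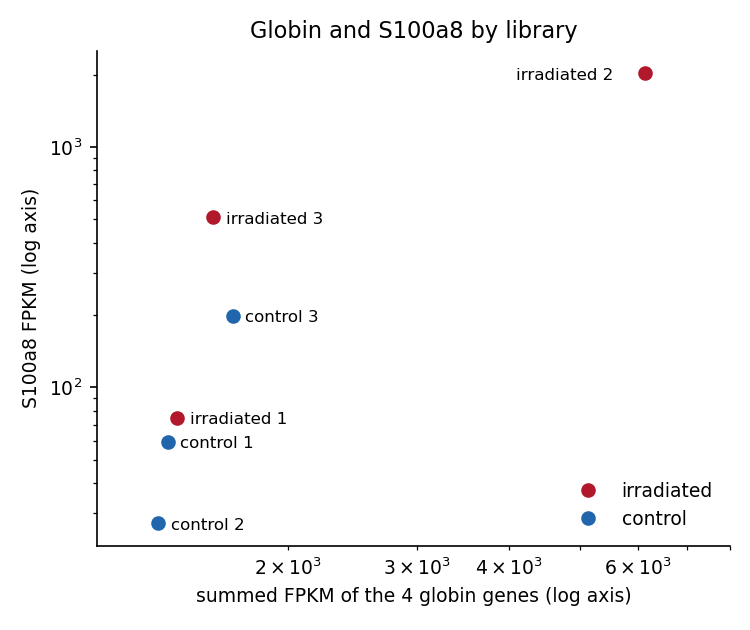
S100a8 FPKM against the summed FPKM of the 4 globin genes, both on log axes, with 1 point per library. Irradiated 2 is high on both axes (6135 and 2029 FPKM), and irradiated 3 has 510 FPKM of S100a8 with 1585 FPKM of globin, inside the control range of globin.

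Transcripts of other cell types found in blood were read from lists of marker genes, and no member of these lists passed limma over all genes. In RNA of whole lung, cells within vessels cannot be told from cells in the tissue, so these sums do not measure blood alone. The neutrophil list, with S100a8 and S100a9 in it, had its highest value in irradiated 2 for 14 of 14 genes, and its summed FPKM was 0.861, 16.1 and 5.09 times the control mean in irradiated 1 to 3, against 0.377 to 1.95 times in the controls. Retnlg, a resistin-like protein of neutrophils, was at 25.2, 524 and 105 FPKM in irradiated lungs, against 10.8, 5.85 and 36.2 FPKM in control lungs. The inflammatory cytokine Il1b was at 11.6, 135 and 112 FPKM in irradiated lungs, against 12.4, 5.33 and 72.5 FPKM in control lungs.

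Platelet transcripts had another order of libraries than globin. All 14 listed genes had negative log2 changes, with a median of −0.89, and the summed FPKM was 0.254, 0.568 and 0.541 times the control mean in irradiated 1 to 3, against 0.721 to 1.16 times in control 1 to 3. In 6 of the 14 every irradiated library was below every control library, as for 14.6% of tested genes, and 0 of the 13 tested passed limma. Ppbp, a platelet chemokine precursor, was at 4.61, 30.6 and 15.6 FPKM in irradiated lungs, against 31.4, 54.5 and 53.9 FPKM in control lungs. Pf4, platelet factor 4, was at 12.7, 14.3 and 25.0 FPKM in irradiated lungs, against 22.1, 38.9 and 37.3 FPKM in control lungs. Gng11, a G protein subunit of platelets and endothelium, was at 30.4, 40.9 and 38.4 FPKM in irradiated lungs, against 61.6, 75.5 and 86.4 FPKM in control lungs (limma adjusted p = 0.0700). Irradiated 1 was the lowest library for the platelet sum, while its globin was at the control level.

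The lists of monocytes, B cells and T cells spanned a narrower range than the neutrophil list. Their summed FPKM in irradiated 2 was 1.37, 0.535 and 0.808 times the control mean. The monocyte sum was 1.03 and 0.969 times the control mean in irradiated 1 and 3, and it is mostly Ace, an enzyme that capillary endothelium also makes, at 149 to 214 FPKM in irradiated and 133 to 172 FPKM in control lungs. Of the 10 monocyte genes 8 had positive log2 changes, with a median of 0.32. In 5 every irradiated library was above every control library (9.91% of tested genes) and in 1, Plac8, below (14.6%). Plac8 was at 47.4, 54.3 and 31.9 FPKM in irradiated lungs, against 54.3, 55.6 and 56.4 FPKM in control lungs (limma adjusted p = 0.384). Ly6c2, a surface marker of classical monocytes, was at 27.5, 24.5 and 18.8 FPKM in irradiated lungs, against 14.3, 16.4 and 17.9 FPKM in control lungs (limma adjusted p = 0.182). Ccr2, the chemokine receptor of classical monocytes, was at 11.9, 20.2 and 17.7 FPKM in irradiated lungs, against 10.7, 10.1 and 9.63 FPKM in control lungs, without overlap (limma adjusted p = 0.166). All 7 B cell genes had negative log2 changes, with a median of −0.43, and their sum was lowest in irradiated 2. Cd79a, a B cell receptor chain, was at 26.0, 14.1 and 30.7 FPKM in irradiated lungs, against 32.4, 36.6 and 26.7 FPKM in control lungs. The T cell genes had a median of 0.17 and their sum was highest in irradiated 3, at 1.55 times the control mean.

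The 10 genes listed for bone marrow granule precursors differed widely in level, and 4 were tested with 0 passing. All 10 had positive log2 changes, with a median of 0.29, and 5 were highest in irradiated 2. Chil1, a chitinase-like protein that other lung cells also make, held most of the sum, at 531, 305 and 409 FPKM in irradiated lungs, against 315, 379 and 288 FPKM in control lungs (limma adjusted p = 0.487). Ltf, the iron-binding lactoferrin, was at 18.0, 12.8 and 14.5 FPKM in irradiated lungs, against 3.27, 52.9 and 6.01 FPKM in control lungs. Camp, a granule peptide precursor, was at 5.52, 11.2 and 8.63 FPKM in irradiated lungs, against 2.79, 0.426 and 10.7 FPKM in control lungs. The groups overlap for all 3 of these genes. Elane and Mpo, granule enzymes of immature neutrophils that are named after their values were seen, were at no more than 0.608 FPKM in any library. In 2 of the 10 genes, Prtn3 and Ctsg, every irradiated library was above every control library (9.91% of tested genes). Prtn3 was at 1.08, 1.90 and 1.18 FPKM in irradiated lungs, against 0.296, 0.521 and 0.623 FPKM in control lungs. Ctsg was at no more than 0.353 FPKM, and neither gene reached the minimum for testing. Ngp, a granule protein of later stages, was at 10.3, 42.3 and 17.8 FPKM in irradiated lungs, against 4.30, 0.774 and 15.3 FPKM in control lungs.

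**Figure D5:**
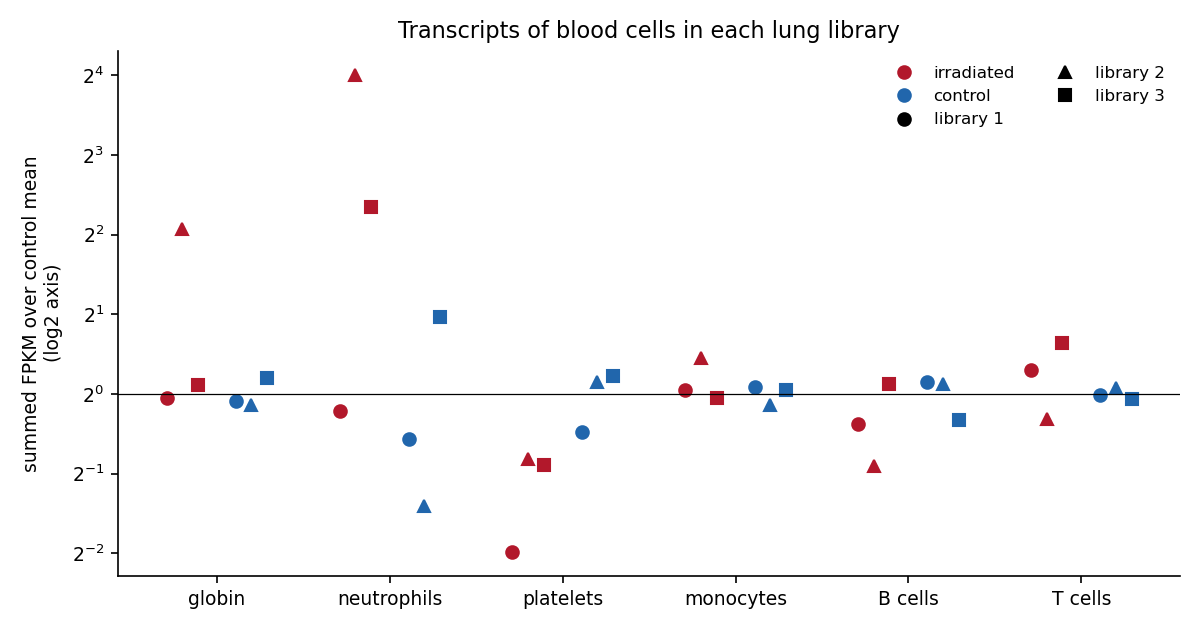
Summed FPKM of the 4 globin genes and of 5 blood cell lists in each library, divided by the control mean, on a log2 axis, with irradiated left of control. Irradiated 2 is at 4.19 for globin and 16.1 for neutrophils, irradiated 3 at 1.08 and 5.09, and all 3 irradiated libraries are below 0.57 for platelets.

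Some other red cell genes had their highest level in irradiated 2 and some did not. Among 16 genes of the red cell membrane and surface, 6 were highest in irradiated 2, 5 were tested and 0 passed, with a median log2 change of 0.05 over all 16. Epb41, protein 4.1 of the membrane skeleton, was at 26.1, 47.0 and 26.5 FPKM in irradiated lungs, against 28.1, 22.7 and 24.3 FPKM in control lungs. Tmod1, which caps actin filaments, was at 36.2, 38.7 and 27.7 FPKM in irradiated lungs, against 25.4, 28.1 and 25.6 FPKM in control lungs. Gypc, glycophorin C, was at 7.03, 6.70 and 8.65 FPKM in irradiated lungs, against 7.55, 9.02 and 9.12 FPKM in control lungs, so it was lowest in irradiated 2. Aqp1, a water channel of red cells that capillary endothelium makes in quantity, was at 181, 183 and 150 FPKM in irradiated lungs, against 233, 244 and 252 FPKM in control lungs (limma adjusted p = 0.106).

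Among 17 enzymes and late red cell genes, 6 were highest in irradiated 2, 3 of them by at least 2-fold, 13 were tested and 0 passed (median log2 change 0.08). Bpgm and Tspo2 are among the 3, and both are named after their values were seen. Bpgm, which makes the haemoglobin effector bisphosphoglycerate, was at 29.0, 63.8 and 22.1 FPKM in irradiated lungs, against 23.7, 21.9 and 24.5 FPKM in control lungs. Tspo2, a cholesterol-binding protein of erythroid cells, was at 0.0784, 1.03 and 0.107 FPKM in irradiated lungs, against 0.108, 0.0432 and 0.116 FPKM in control lungs. The 4 most abundant genes of the list differed less between libraries, and Car2, Prdx2, Mkrn1 and Bnip3l in irradiated 2 were between 0.734 and 1.29 times the mean of the other 5 libraries. In 3 of the 17, Car2 and Prdx2 among them, every irradiated library was below every control library (14.6% of tested genes). In 1 every irradiated library was above (9.91%). The remaining globin chains, which include embryonic ones, were at no more than 0.654 FPKM (Hbq1b in irradiated 2), and Hbb-bh2 was listed at 0 in every library.

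Among 10 regulators of red cell precursors, 6 were tested and 0 passed, with a median log2 change of −0.01 over all 10. Gata1 and Klf1, factors that drive red cell genes, are named after their values were seen. Gata1 was at 0.0817, 0.332 and 0.493 FPKM in irradiated lungs, against 0.273, 0.453 and 0.645 FPKM in control lungs. Klf1 was at no more than 0.195 FPKM and was listed at 0 in control 2. Of the 10 listed genes, 1 was highest in irradiated 2, about the share of all tested genes (10.4%): the transcription factor Nfe2, at 2.14, 13.1 and 5.67 FPKM in irradiated lungs, against 3.63, 3.11 and 4.80 FPKM in control lungs. Nfe2 is also expressed by neutrophils and megakaryocytes, and irradiated 2 and 3 were both above every control library. Lmo2, a cofactor that endothelium also uses, was at 13.4, 14.1 and 23.1 FPKM in irradiated lungs, against 33.8, 29.4 and 36.4 FPKM in control lungs (log2 change −0.97 ± 0.21, limma adjusted p = 0.0980). Tfrc, the transferrin receptor, was at 10.0, 9.70 and 12.4 FPKM in irradiated lungs, against 17.2, 15.8 and 17.8 FPKM in control lungs (log2 change −0.62 ± 0.11, limma adjusted p = 0.0793). Neither passed. In these 2 of the 10 listed genes every irradiated library was below every control library, as for 14.6% of tested genes.

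The haem synthesis genes used by all cells were measured beside Alas2. Alas1, the general form of the enzyme, was at 98.6, 102 and 121 FPKM in irradiated lungs, against 140, 96.7 and 87.4 FPKM in control lungs (log2 change 0.01 ± 0.19, limma adjusted p = 0.978). Of the 8 listed steps, 3 had positive and 5 negative changes, with a median of −0.21, and 0 passed. Fech, which inserts iron into the ring in the last step, was at 15.4, 18.2 and 16.7 FPKM in irradiated lungs, against 13.9, 14.1 and 12.9 FPKM in control lungs, without overlap (limma adjusted p = 0.204). It was the 1 gene of 8 with its highest value in irradiated 2, near the share of all tested genes (10.4%). In 2 of the 8 every irradiated library was above every control library (9.91% of tested genes) and in 1 below (14.6%). Urod was at 14.4 to 19.4 FPKM in irradiated and 18.0 to 20.2 FPKM in control lungs, and Ppox at 10.2 to 14.9 FPKM in irradiated and 13.5 to 15.5 FPKM in control lungs.

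The transport and breakdown list also showed 0 of 15 tested genes past the threshold, with a median log2 change of 0.10. Hp, the plasma protein haptoglobin that binds free haemoglobin and is made in lung, was at 304, 479 and 372 FPKM in irradiated lungs, against 441, 350 and 368 FPKM in control lungs. Hmox2, the constitutive haem oxygenase, was at 32.2, 29.4 and 34.3 FPKM in irradiated lungs, against 32.5, 35.1 and 30.5 FPKM in control lungs. Slc48a1, a haem transporter of lysosomes, was at 47.6 to 53.0 FPKM in irradiated and 48.3 to 51.3 FPKM in control lungs, and Tmem14c, a mitochondrial carrier of haem precursors, at 34.2 to 37.7 FPKM in irradiated and 33.9 to 46.5 FPKM in control lungs. Hmox1, the inducible haem oxygenase, which was picked with its values in view, had 24.4, 22.5 and 15.9 FPKM in irradiated lungs, against 17.4, 16.6 and 16.4 FPKM in control lungs (limma adjusted p = 0.394).

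The genes most like globin in pattern were found from the distance between library profiles. The distance is the root mean square difference, over the 6 libraries, between the centred log2(FPKM + 1) profile of a gene and that of summed globin. Among the 5 nearest genes outside the members were Oas3 (0.196), Fpr1 (0.237), Lars2 (0.269) and Klra2 (0.277), against a median of 0.844 over all genes tested. The tested members were at 0.0510 (Hbb-bs) to 0.302 (Hba-a2), but the globin genes make up the summed profile, so their short distances are partly built in. Alas2, the tested member outside that sum, was at 0.262, and S100a8 was at 1.47. Oas3, an antiviral enzyme, was at 1.66, 8.79 and 0.988 FPKM in irradiated lungs, against 1.53, 1.01 and 1.84 FPKM in control lungs. Fpr1, the formyl peptide receptor of neutrophils, was at 6.73, 23.9 and 8.21 FPKM in irradiated lungs, against 4.59, 7.21 and 6.97 FPKM in control lungs. All 5 were highest in irradiated 2, which their choice by likeness to globin largely fixed in advance.

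Other measures also set irradiated 2 apart, and their part in the globin result was not tested. Irradiated 2 had the greatest depth, the most neutrophil RNA and the least cardiac muscle and adipose RNA. Myh6, the atrial myosin chain of mouse heart and pulmonary vein muscle, was at 34.9, 1.42 and 39.5 FPKM in irradiated lungs, against 8.04, 71.8 and 6.78 FPKM in control lungs. Adipoq, the fat cell hormone adiponectin, was at 14.2, 0.0235 and 7.23 FPKM in irradiated lungs, against 0.891, 31.2 and 1.85 FPKM in control lungs. For both genes control 1 and 3 were below control 2 and above irradiated 2. Skeletal muscle transcripts summed to 0.932 FPKM over 7 genes in irradiated 2, against 2.48 to 12.0 FPKM in the other 5 libraries.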

How the data were processed

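Whole lung polyA RNA of 3 irradiated and 3 control libraries was measured. The submitters' processing notes list STAR 2.7.6a, fastp, DESeq2 and GRCm39 without saying what each did. Neither the quantification step nor its annotation or strand setting is given in these notes. Per the file headers, the authors deposited FPKM, coverage (a signal per base) and TPM for each gene. TPM was not used, because each column sums to about 2 times the total that defines the unit. Coverage served to estimate depth and to describe members. No counts were at hand, so no counting intervals are printed.

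Rows with a gene name were used and FPKM were summed per gene. Rows assembled without a name were left out: at the members many repeat a named row (for Hbb-bs, 6 of 6 had the same FPKM within 0.001, for Slc4a1 2 of 11). Genes whose mean reached 1 FPKM were tested with limma 3.58.1 (R 4.3.3, trend, robust) on log2(FPKM + 1), with no covariate and Benjamini-Hochberg adjustment. Log2 changes are irradiated minus control and understate low genes. Sums and ratios were compared by a two-sided exact permutation test, adjusted over the 7 of them. The procedure was tested on simulated data. The members, the lists (182 genes, all matched) and the naming rule were chosen with earlier results of these data known. The naming rule takes the members, S100a8, S100a9, the 4 genes of highest mean FPKM per list, called genes and the 5 genes nearest to globin. Some genes of the lists are not reported here. Alternatives were other scalings, filters, a pseudocount of 0.1, a block, summed copies and leaving out libraries. Python 3.11.15, pandas 2.3.3, numpy 2.4.6 and scipy 1.17.1 were used.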

Additional observations from a re-analysis of the deposited data

How the results depend on the processing

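No member passed under any of the 17 alternatives, and the median log2 change of the 6 members (0.73) stayed positive under the 13 that could alter it, from 0.03 to 1.06. Over all genes 25 passed, against 0 with no filter (3531 at an unadjusted p under 0.05 in limma), 38 with a minimum of 5 FPKM, 13 with a common sum, 11 with median-ratio scaling, 0 with the replicate number as a block (1623 at an unadjusted p under 0.05) and 0 to 116 when any 1 library was left out. It was 0 without control 1 and without control 3 (1905 and 1650 at an unadjusted p under 0.05), 1 without control 2, 3 without irradiated 2, 100 without irradiated 1 and 116 without irradiated 3. Rescaling to a common sum moved the median log2 change of all genes to 0.08 (−0.03 as deposited), and the calls split into 7 higher and 6 lower genes (9 and 16 as deposited). When control 2 and irradiated 2 were both left out, which was chosen after seeing the data, 9 genes passed. The log2 difference of summed globin then was −0.0216, that of α over β globin 0.13 and that of Hbb-bt over Hbb-bs −0.0785, and the log2 changes were −0.52 (Hba-a2), −0.0676 (Hbb-bs) and −0.15 (Hbb-bt).

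When any 1 library was left out, the log2 difference ranged from −0.138 to 0.0683 for α over β globin and from −0.0676 to 0.248 for Hbb-bt over Hbb-bs, and the log2 change of Hba-a2 from −0.48 to 0.77. The labels do not say that the replicate numbers pair libraries. Same-numbered libraries had correlations of deviations from their group means of −0.17, −0.54 and −0.28. With 3 libraries per group these deviations constrain one another, so the correlations cannot decide whether the numbers pair libraries. The block left the ratios' differences as they were, and with 3 pairs no exact p can go below 0.25. It changed no call of a member. The differences of Alas2, Slc4a1 and S100a8 relative to globin stayed positive under the 12 alternatives run for each. The scalings and the block cannot alter a ratio within a library, so what bears on this is the leaving out of libraries. Slc4a1 had the lowest coverage of the members, so its values are the least precise.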

Other observations

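Iron handling genes were measured beside the red cell genes, and 0 of 10 passed limma over all genes. Their median log2 change was 0.13. Slc40a1, the iron exporter ferroportin, was picked with its values in view. It had 6.59, 13.4 and 14.3 FPKM in irradiated 1 to 3, against 3.43, 2.87 and 4.62 FPKM in control 1 to 3. The groups did not overlap, and 9.91% of tested genes had every irradiated library above every control library. The log2 change of Slc40a1 was 1.37 ± 0.29 (limma adjusted p = 0.0976). Fth1 and Ftl1, the ferritin chains that store iron, were at 1235 to 1401 FPKM and 883 to 962 FPKM in irradiated lungs, against 1173 to 1290 FPKM and 884 to 938 FPKM in control lungs. Trf, transferrin, was at 178, 124 and 129 FPKM in irradiated lungs, against 160, 181 and 140 FPKM in control lungs. Aco1, the iron-sensing aconitase, was at 10.8 to 15.1 FPKM in irradiated and 13.5 to 15.2 FPKM in control lungs.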
